A study of Mus musculus with 4 samples.

Results

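The SWI/SNF and INO80 remodelling complexes were followed through their genes in sorted meiotic germ cells of the mouse. Members were all gene names that begin with Smarc, Arid, Ino80, Ruvbl, Bcl7 or Ss18, together with *Actr5*, *Actr6*, *Actr8*, *Dpf1*, *Dpf2*, *Dpf3*, *Phf10*, *Pbrm1*, *Srcap* and *Ep400*. The rule took 47 of the 24411 genes listed, and no expression value entered it. Of these 47 genes, 46 had a mean of at least 1 TPM (an abundance per transcript corrected for transcript length and scaled to 1 total in every library, so that the sequencing depth is not known) and were tested. The 47th, *Arid3c*, was at 0.15 and 0.36 TPM in the controls, against 0.83 and 0.45 TPM in the other libraries.

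RNA came from testes at postnatal day 18, when the leading germ cells are in meiotic prophase, and was measured by RNA-seq in 2 control *Zfp541*+/- samples and 2 *Zfp541* KO samples. The labels give a mixed C57BL/6 and CBA strain, whereas the study's methods place the mice on C57BL/6. All 4 carried a Rec8-3xFLAG-HA-p2A-GFP allele knocked in, which makes GFP in cells that express the meiotic cohesin REC8, and GFP-positive cells were sorted from each. The series describes the controls as 1 testis heterozygous and 1 testis homozygous for the knock-in allele, without a label that tells which is which, and both KO testes as homozygous. The comparison asks which transcripts differ in prophase cells without ZFP541, a zinc finger protein of meiotic prophase. In the KO its gene carries a deletion that, per the study, runs from the first exon across further exons.

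Chromatin remodellers are multiprotein machines built around an ATPase that slides, evicts or exchanges nucleosomes. SWI/SNF complexes are assembled around SMARCA4 or SMARCA2 in a form with ARID1 proteins (BAF) and a form with ARID2 and PBRM1 (PBAF). The INO80, SRCAP and TIP60 complexes share the helicases RUVBL1 and RUVBL2 and act on nucleosomes with the histone variant H2A.Z. In male germ cells, remodellers of both families are known to be needed for progress through meiotic prophase, and several subunits are encoded by paralogues that replace one another at the same position.

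The libraries were checked before the members. *Zfp541* measured 112 and 72.2 TPM in controls 1 and 2, against 136 and 151 TPM in those labelled *Zfp541* KO, called KO-labelled libraries 1 and 2 from here on (log2 fold change by limma 0.67, standard error SE 0.28, adjusted p = 0.371). *Zfp541* was thus not lower with the label but above both controls in both KO-labelled libraries, as were 38.6% of all genes tested. Gene-level values cannot show which exons the reads came from, and in these data every direction below rests on the label alone. Summed markers of Leydig cells, the steroid-producing cells between the tubules, were at 2910 TPM in control 1, 18.0 TPM in control 2, and 331 and 504 TPM in the KO-labelled libraries. The summed macrophage markers were at 454, 4.39, 382 and 286 TPM in the same order. The gonadotropin receptor gene *Lhcgr* of Leydig cells was at 0 in control 2. Markers of leptotene and zygotene, the early stages of prophase, summed to 1945 and 2436 TPM in the controls. In the KO-labelled libraries they summed to 3912 and 4054 TPM, with 6 of 8 genes higher without overlap (38.6% of all genes tested). Pachytene markers summed to 6194 and 2874 TPM in the controls, against 2019 and 2837 TPM. Of these 8 genes, 5 were lower and 1 higher without overlap (12.1% and 38.6% of all genes tested). Summed markers ranged from 495 to 1150 TPM for spermatogonia and from 136 to 260 TPM for Sertoli cells, and overlapped between the groups. The gate's own gene *Rec8* was at 7.05, 27.85, 27.66 and 19.41 TPM. In such bulk samples, fewer cells of a type and less RNA per cell cannot be told apart, and the part of cell makeup in the differences below was not tested.

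No member passed the test between the groups. In the fit of log2(TPM + 1) by limma over 14512 genes, 0 members were called higher or lower at a false discovery rate (FDR) of 0.05, where the share of all genes called was 0%, and the smallest adjusted p of a member was 0.310, also the smallest of any gene. At an unadjusted p under 0.05, 7 members were higher and 0 lower, against 10.7% and 3.73% of all genes. The 7 were *Arid4b*, *Ino80d*, *Smarca5*, *Smarca5-ps*, *Smarcad1*, *Smarcc1* and *Smarcd1*. Without a model, 24 of 46 members were above both controls in both KO-labelled libraries, a share of 52.2% where 38.6% of all genes tested did the same. Another 5 members (10.9%, against 12.1% of all genes) were lower in both, and 17 overlapped. The lower count was 13 without control 2 (36% of all genes) and 8 without KO-labelled library 1 (15.6% of all genes). The members' median log2 fold change was 0.34, beside 0.28 over all genes tested. It was 0.57 without control 1 and 0.20 without control 2, beside 0.44 and 0.15 over all genes. An exact permutation test of 2 against 2 cannot go below 0.33. The p-values measure only the spread between these testes.

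The 2 controls differed from each other more than the 2 KO-labelled libraries did. Leaving out control 1 moved the log2 fold change of 19 members by over 1.5 times and turned the sign of 4, and leaving out control 2 did so for 18 and 7. Over the 46 members, the median absolute log2 difference was 0.42 between the controls and 0.13 between the KO-labelled libraries. Control 2 was below control 1 in 32 members, at no more than 0.5 of it in 11, whereas no member differed 2-fold between the KO-labelled libraries. Leaving out a control changed the calls. Without control 1, limma called 22 members higher and 3 lower at the same FDR (38.7% and 9.47% of all genes). Without control 2, it called 8 higher and 3 lower (15.5% and 12.9% of all genes). In these fits the remaining control is assumed to vary as the KO-labelled libraries do. The 8 members called higher in both of these fits were *Arid1a*, *Arid4b*, *Ino80d*, *Smarca5*, *Smarca5-ps*, *Smarcad1*, *Smarcc1* and *Smarcd1*, and 9.92% of all genes were called higher in both. No member was called lower in both, whereas 3.18% of all genes were. *Smarca1* and *Smarca2* were called higher without control 1 and lower without control 2.

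**Figure D1:**
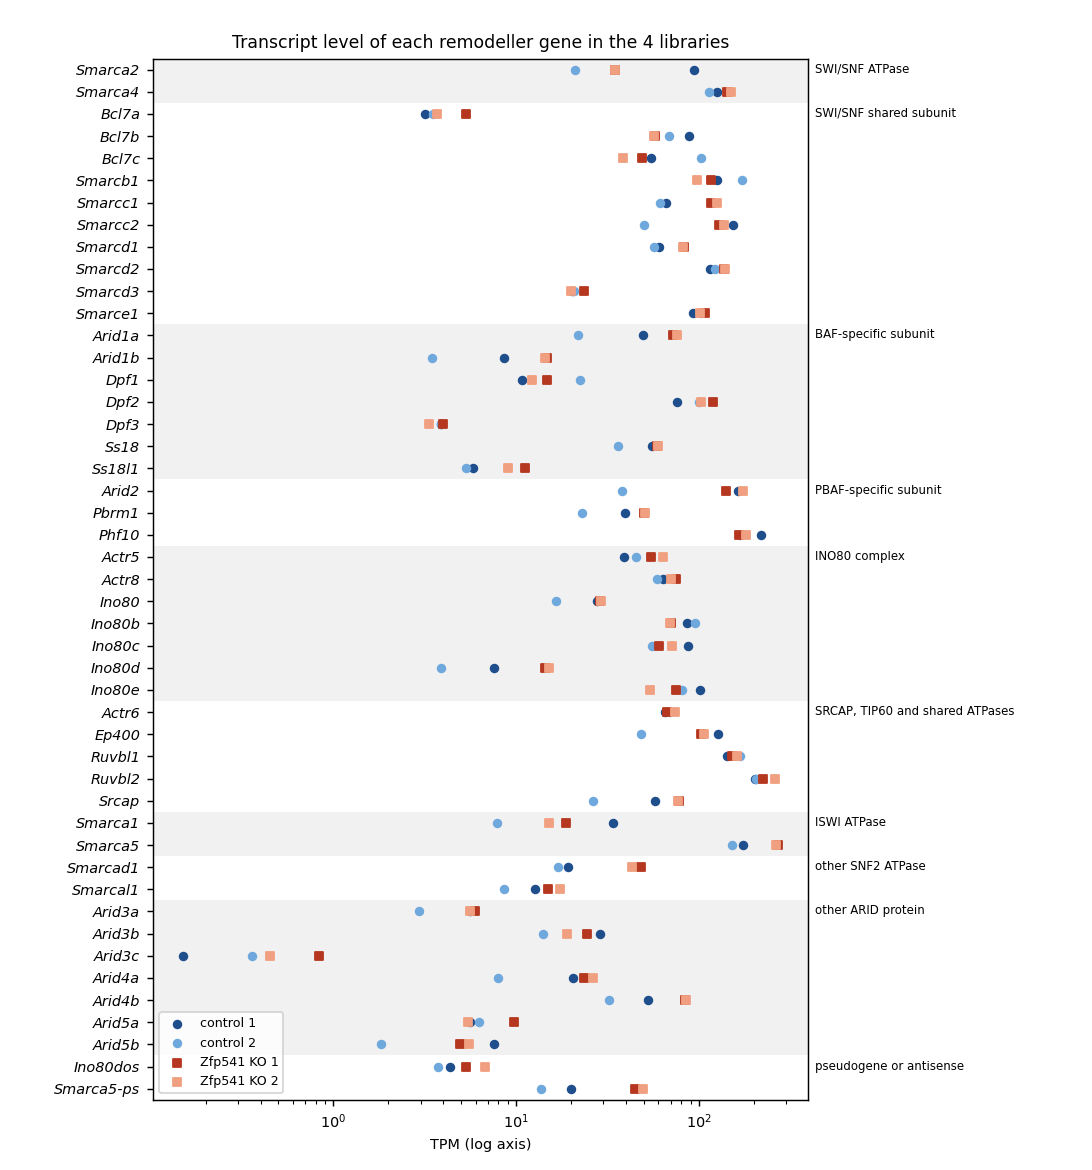
Level of each of the 47 members in TPM on a log axis, 1 row per gene grouped by role; circles are the 2 controls and squares the 2 KO-labelled libraries. Members ranged from below 1 TPM (*Arid3c*) to above 200 TPM (*Smarca5*, *Ruvbl2*, *Phf10*), and the squares lie close together where the circles often do not.

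Promoter sequence was looked at for members on either side of the comparison. RefSeq start sites (GRCm38.p6) gave 42 windows of 300 bases, 250 before and 50 after the start, for 36 members. They were rich in G, C and CpG, with a median GC content of 65.0% and 25 CpG sites, beside 60.3% and 20 over 13830 windows of genes tested and 52.7% and 7 over all 32851 windows. The GC box GGGCGG, the motif of SP1-type factors, stood on either strand in 32 of the 42 windows (76.2%), beside 60.1% for genes tested and 35.7% for all. The NRF1 core TGCGCA was in 9 (21.4%, beside 13.2% and 7.8%), the ETS core CCGGAAG in 6 (14.3%, beside 16.3% and 8.9%) and TATAAA in 3 (7.1%, beside 7.3% and 13.6%). CCAAT was in 14 (33.3%, beside 38.0% and 37.4%), the E-box CACGTG in 4 (9.5%, beside 9.8% and 7.2%) and the YY1 core ATGGCGG in 3 (7.1%, beside 7.3% and 4.1%). A match is a description of the letters and not a bound site. The 100 bases before the start are shown for 3 members that were higher and 3 that were lower in both KO-labelled libraries. They are examples picked after their values were seen. TATAAA is absent from these stretches, which hold 8 to 14 CpG sites. They do not stand for all members of either kind, and the window of *Smarcd2*, also higher, had 4 CpG sites and TATAAA. Capitals mark the GC box, the NRF1 core and the ETS core on either strand, and 2 GC boxes overlap in *Bcl7b*.
*Smarcc1*, chr9:110131924-110132023, plus strand: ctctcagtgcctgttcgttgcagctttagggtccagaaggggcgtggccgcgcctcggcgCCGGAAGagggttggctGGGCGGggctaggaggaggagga
*Srcap*, chr7:127511883-127511982, plus strand: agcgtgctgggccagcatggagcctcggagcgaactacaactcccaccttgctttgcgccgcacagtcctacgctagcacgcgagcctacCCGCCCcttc
*Smarca5*, chr8:80739460-80739559, minus strand: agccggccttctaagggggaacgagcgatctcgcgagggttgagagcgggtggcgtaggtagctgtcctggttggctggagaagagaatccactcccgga
*Bcl7b*, chr5:135168272-135168371, plus strand: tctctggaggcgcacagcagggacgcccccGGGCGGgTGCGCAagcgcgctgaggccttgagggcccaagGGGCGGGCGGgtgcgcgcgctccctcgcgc
*Ino80b*, chr6:83125120-83125219, minus strand: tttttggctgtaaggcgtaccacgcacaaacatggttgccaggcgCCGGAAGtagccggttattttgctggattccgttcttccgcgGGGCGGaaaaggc
*Smarcb1*, chr10:75921615-75921714, minus strand: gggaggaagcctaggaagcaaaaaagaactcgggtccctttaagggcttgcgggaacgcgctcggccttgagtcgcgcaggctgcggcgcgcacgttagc
Of these, *Smarcc1*, *Srcap* and *Smarca5* were higher and *Bcl7b*, *Ino80b* and *Smarcb1* lower. The median GC content was 65.2% over the 20 windows of members that were higher in both and 58.7% over the 6 windows of members that were lower, with a median of 25 CpG sites in each.

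The ATPases of SWI/SNF differed in how steady they were. *Smarca4*, which encodes the ATPase BRG1, was at 126 and 113 TPM in the controls, against 142 and 150 TPM in the KO-labelled libraries. The groups did not overlap, but the log2 fold change of 0.29 (SE 0.18, limma adjusted p = 0.497) was at the median of all genes and turned to -0.05 after median-ratio scaling (each library scaled so that the median ratio of its genes to their means is level) and to -0.28 after a correction for transcript length. *Smarca2*, the alternative ATPase BRM, was at 93.7 TPM in control 1 but 21 TPM in control 2, with 34.8 and 34.6 TPM in the KO-labelled libraries between them. Its log2 fold change of -0.35 had a standard error of 0.75 (adjusted p = 0.841, limma) and was 0.70 against control 2 alone. As a share of the summed TPM of the pair, *Smarca4* took 57.3% in control 1 and 84.3% in control 2, and 80.3% and 81.2% in the KO-labelled libraries, so that its share in control 1 stood apart from the other 3 libraries.

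Among the 10 genes for subunits shared by SWI/SNF forms, 4 were higher and 3 lower in both KO-labelled libraries and 3 overlapped. The shares were 40% and 30%, beside 38.6% and 12.1% of all genes tested. Of the 4, *Bcl7a* overlapped after median-ratio scaling, quantile normalization and length correction, and *Smarcd2* after median-ratio scaling and length correction. The highest log2 fold change of the 10 was that of *Smarcc1*, a scaffold subunit (BAF155), singled out here after its values were seen. Its level was 65.7 and 61.2 TPM in the controls, against 116 and 126 TPM in the KO-labelled libraries. The means were 63.4 ± 3.22 (SD, n = 2) and 121 ± 6.90 TPM (SD, n = 2), a 1.90-fold difference with a log2 fold change of 0.92 (SE 0.18, limma adjusted p = 0.310). The difference of the means was larger than the spread in either group, and was 0.39 on the log2 scale after length correction. *Smarcc1* lies on chromosome 9 at 110117708 to 110240178, plus strand (GRCm38). The RefSeq start used for its promoter above lies inside this span, so it is not the start of the annotated gene. Its paralogue *Smarcc2* (BAF170) was at 153 and 49.7 TPM in the controls, against 128 and 137 TPM in the KO-labelled libraries, an overlap. The 2 scaffold genes therefore made up different shares in the controls, with *Smarcc1* at 30.0% in control 1 and 55.2% in control 2, and at 47.5% and 47.8% in the KO-labelled libraries.

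Of the SMARCD genes, whose proteins link the complex to transcription factors, *Smarcd1* was at 60.4 and 56.4 TPM in the controls, against 83.1 and 82.2 TPM in the KO-labelled libraries (limma log2 fold change 0.49, SE 0.18, adjusted p = 0.343). *Smarcd2* was at 115 and 122 TPM against 138 and 139 TPM (limma log2 fold change 0.22, SE 0.17, adjusted p = 0.568), and its difference was -0.11 after median-ratio scaling. *Smarcd3* was at 20.1 and 20.8 TPM against 23.5 and 20.04 TPM, an overlap (limma log2 fold change 0.08, SE 0.26, adjusted p = 0.901) that was -0.24 after median-ratio scaling, -0.17 after quantile normalization and -0.25 after length correction. Within the trio, the share of *Smarcd1* was 30.9% and 28.3% in the controls, against 34.0% and 34.1% in the KO-labelled libraries, a mean difference of 4.44 percentage points. That of *Smarcd2* was 58.8% and 61.2% against 56.4% and 57.5%, and that of *Smarcd3* 10.3% and 10.4% against 9.62% and 8.32%. None of the 3 shares overlapped between groups, although the shares of 1 position are tied to each other.

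The shared subunits that were lower were *Smarcb1*, *Bcl7b* and *Bcl7c*. *Smarcb1* encodes the core subunit SNF5 and was at 126 and 171 TPM in the controls, against 116 and 97.8 TPM in the KO-labelled libraries (limma log2 fold change -0.46, SE 0.24, adjusted p = 0.437). *Bcl7b* was at 87.7 and 68.3 TPM against 57.4 and 56.6 TPM (limma log2 fold change -0.43, SE 0.22, adjusted p = 0.419), and *Bcl7c* at 54.5 and 102 TPM against 48.9 and 38.6 TPM (limma log2 fold change -0.77, SE 0.37, adjusted p = 0.413). For *Smarcb1* and *Bcl7c* most of the gap came from control 2, with log2 differences from control 1 alone of -0.24 and -0.32. The third BCL7 gene, *Bcl7a*, was low throughout, at 3.16 and 3.51 TPM against 5.34 and 3.69 TPM (limma log2 fold change 0.33, SE 0.40, adjusted p = 0.715), and its difference was -0.10 after length correction. The summed TPM of the 3 BCL7 genes was 145 and 174 in the controls, against 112 and 98.9 in the KO-labelled libraries, and the share of *Bcl7a* in it was 2.17% and 2.02% against 4.78% and 3.73%. *Smarce1*, the HMG-box subunit BAF57, was at 92.5 and 102 TPM against 108 and 101 TPM.

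**Figure D2:**
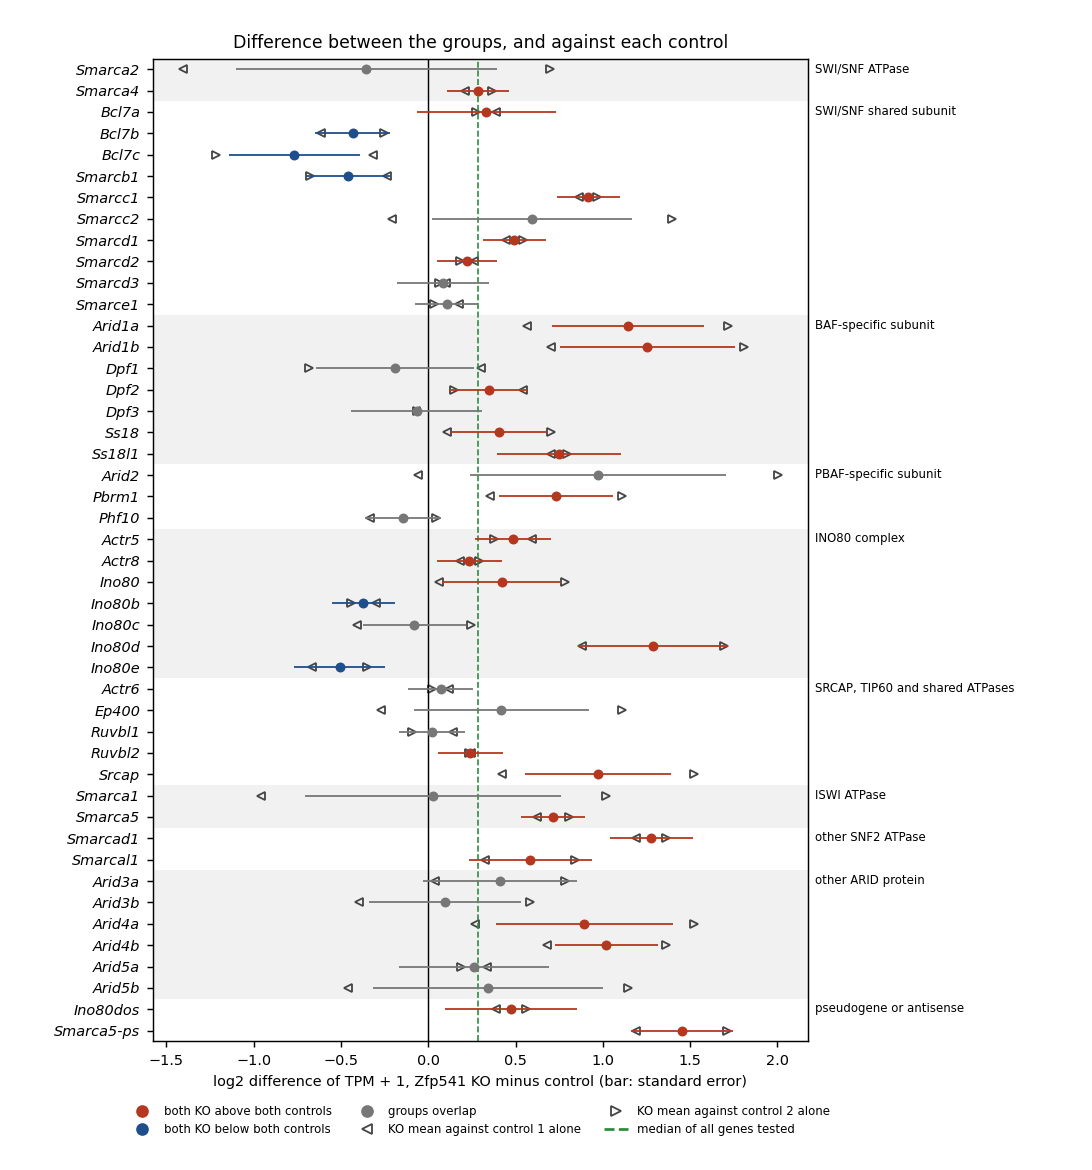
log2 difference of TPM + 1 between the KO-labelled libraries and the controls for the 46 members tested (circles, with the limma standard error as a bar), with triangles for the difference from each control alone. The dashed line is the median of all genes tested, 0.28; triangles of *Smarca2*, *Smarca1*, *Ep400* and *Arid2* lie on opposite sides of 0.

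Of the 7 BAF-specific genes, 5 were higher in both KO-labelled libraries and none was lower, where 38.6% and 12.1% of all genes were. Of the 5, *Dpf2* and *Ss18* overlapped after median-ratio scaling, quantile normalization and length correction. Their log2 fold changes were then 0.01, 0.22 and 0.06 for *Dpf2*, and 0.07, 0.14 and 0.03 for *Ss18*. *Arid1a* encodes the DNA-binding subunit BAF250A, and was at 49.6 and 21.8 TPM in the controls, against 72.3 and 75.8 TPM in the KO-labelled libraries, a 2.07-fold difference of the means (limma log2 fold change 1.14, SE 0.44, adjusted p = 0.352). Its alternative *Arid1b* was at 8.60 and 3.45 TPM against 14.8 and 14.4 TPM (limma log2 fold change 1.26, SE 0.50, adjusted p = 0.363). For both genes control 2 was below 0.5 of control 1, and the difference from control 1 alone was 0.57 and 0.70 on the log2 scale. The share of *Arid1b* in the pair was 14.8% and 13.7% in the controls, against 17.0% and 16.0% in the KO-labelled libraries. *Ss18l1*, a subunit gene known from the neuronal form of BAF, was at 5.77 and 5.34 TPM against 11.1 and 8.99 TPM (limma log2 fold change 0.75, SE 0.36, adjusted p = 0.407). The widely expressed *Ss18* was at 55.3 and 36.2 TPM against 59.1 and 60.0 TPM (limma log2 fold change 0.40, SE 0.28, adjusted p = 0.534). The share of *Ss18l1* in the pair was 9.45% and 12.9% in the controls, against 15.8% and 13.0% in the KO-labelled libraries, so control 2 and the second of these were almost level.

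The double PHD finger proteins read histone acetylation, and 1 of them enters each complex, DPF proteins in BAF and PHF10 in PBAF. *Dpf2*, the widely expressed form, was at 75.6 and 99.6 TPM in the controls, against 119 and 103 TPM in the KO-labelled libraries (limma log2 fold change 0.35, SE 0.23, adjusted p = 0.520). Its groups overlapped after median-ratio scaling, quantile normalization and length correction. *Phf10* was the most abundant of the 4, at 217 and 168 TPM against 165 and 181 TPM, an overlap. *Dpf1* was at 10.7 and 22.2 TPM against 14.7 and 12.3 TPM, and *Dpf3* stayed between 3.34 and 3.97 TPM in all 4 libraries. The sum of the 4 genes ranged only from 293 to 308 TPM, and the share of *Dpf2* in it was 24.6% and 34.0% in the controls, against 39.3% and 34.4% in the KO-labelled libraries, with control 2 and KO-labelled library 2 almost level.

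In PBAF, *Pbrm1*, a subunit with many bromodomains, was at 39.2 and 22.8 TPM in the controls, against 49.8 and 51.0 TPM in the KO-labelled libraries, which did not overlap. *Arid2*, the ARID subunit that defines the complex, had the widest gap between controls of the 3 PBAF genes, at 162 TPM in control 1 and 38.0 TPM in control 2, and was at 140 and 173 TPM in the KO-labelled libraries. The difference of *Arid2* was -0.06 on the log2 scale against control 1 and 2.01 against control 2, so its direction rested on control 2.

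**Figure D3:**
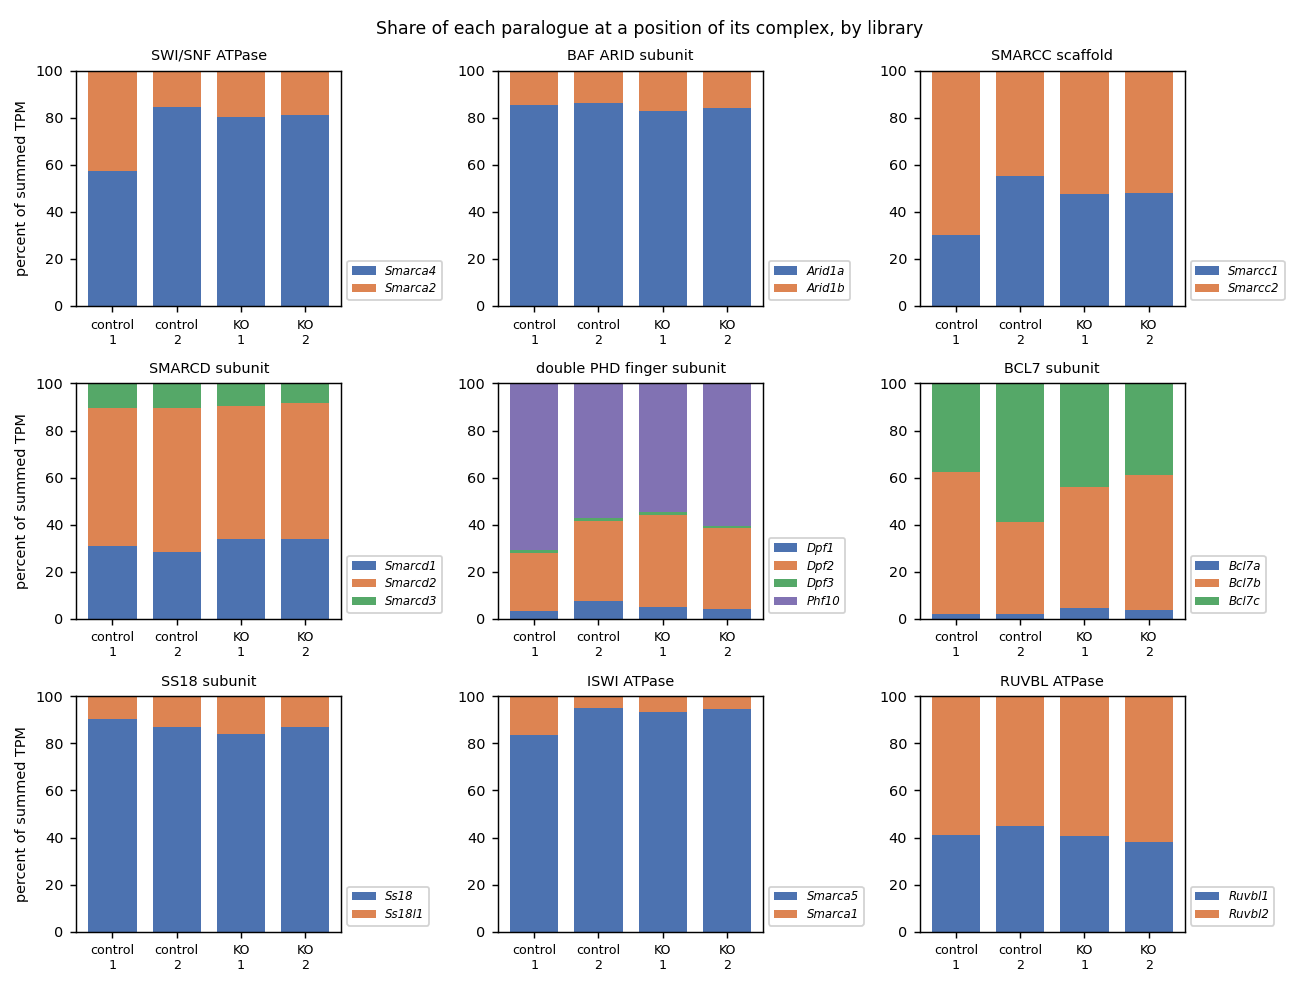
Percent of the summed TPM taken by each paralogue at 9 positions of the complexes (stacked bars, 1 per library). *Smarca4*, *Smarcc1* and *Smarca5* have a smaller share in control 1 than in the other 3 libraries, and the share of *Smarcd1* is larger in both KO-labelled libraries than in both controls.

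A share within a library does not depend on the scaling between libraries, but the shares were not given the length correction used for the fold changes. Of 22 paralogues at 9 positions, 11 paralogues at 6 positions had shares that did not overlap between the groups. Shares at the same position are tied to each other, and no such count over all genes was made. Any full separation of 2 against 2 has an exact permutation p of 0.33. The differences of these 11 ranged from 1.39 to 7.57 percentage points in size. That of *Dpf2*, 7.57, was 2.88 without control 1 and 12.3 without control 2, and that of *Smarcd1* was 5.72 and 3.15. Adding 1 TPM to each paralogue moved the *Arid1b* difference from 2.27 to 1.09 points.

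The INO80 complex held members on both sides. Its ATPase gene *Ino80* was at 27.8 and 16.5 TPM in the controls, against 28.9 and 29.2 TPM in the KO-labelled libraries (limma log2 fold change 0.42, SE 0.34, adjusted p = 0.586), where the value against control 1 alone was 0.06 and that after length correction -0.14. *Ino80d*, an accessory subunit of this complex in animals, was at 7.53 and 3.86 TPM against 14.3 and 15.1 TPM, a 2.58-fold difference of the means (limma log2 fold change 1.29, SE 0.43, adjusted p = 0.327). *Ino80b* was at 85.9 and 94.99 TPM against 70.0 and 69.0 TPM (limma log2 fold change -0.37, SE 0.18, adjusted p = 0.411). *Ino80e* was at 101 and 81.2 TPM against 74.8 and 53.8 TPM (limma log2 fold change -0.51, SE 0.26, adjusted p = 0.427). The actin-related subunits that bind nucleosomes were higher without overlap, with *Actr5* at 38.7 and 45.2 TPM against 54.5 and 63.7 TPM, and *Actr8* at 63.7 and 59.2 TPM against 74.5 and 70.5 TPM, but both overlapped after median-ratio scaling, quantile normalization and length correction. The log2 fold change of *Actr8*, 0.24, turned to -0.10 after median-ratio scaling and -0.12 after length correction. *Ino80c* overlapped, at 87.3 and 55.04 TPM against 60.7 and 70.7 TPM. Of the 7 genes, 4 were thus higher, 2 lower and 1 overlapped. The shares were 57.1% and 28.6%, beside 38.6% and 12.1% of all genes tested. The groups of *Ino80* overlapped after median-ratio scaling and quantile normalization, and its KO-labelled libraries were both lower after length correction. The antisense gene *Ino80dos* overlaps *Ino80d* on chromosome 1 (63113078 to 63158290, plus strand, against 62958418 to 63114667, minus strand, GRCm38). The methods do not say whether the library kit kept the strand, so reads from the overlap may not have been told apart. *Ino80dos* was at 4.36 and 3.74 TPM against 5.31 and 6.77 TPM.

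The helicases shared by INO80, SRCAP and TIP60 differed little between the groups. *Ruvbl1* was at 141 and 167 TPM in the controls, against 152 and 161 TPM in the KO-labelled libraries, with a log2 fold change of 0.02 (SE 0.19, limma adjusted p = 0.966) that was -0.31 after median-ratio scaling and just below 0 after quantile normalization and length correction. *Ruvbl2* was at 202 and 204 TPM against 223 and 259 TPM (limma log2 fold change 0.24, SE 0.19, adjusted p = 0.573), and at -0.10 after that scaling. Although the 2 proteins form 1 ring, *Ruvbl2* took 58.9% and 55.03% of their summed TPM in the controls, against 59.5% and 61.7% in the KO-labelled libraries. *Srcap*, the ATPase that deposits H2A.Z, was at 57.4 and 26.3 TPM against 77.6 and 77.0 TPM (limma log2 fold change 0.97, SE 0.42, adjusted p = 0.381). The value for *Srcap* was 0.42 against control 1 alone, 1.52 against control 2 alone and 0.22 after length correction. *Ep400*, the ATPase of the TIP60 complex, was at 126 TPM in control 1, 47.9 TPM in control 2, and 102 and 107 TPM in the KO-labelled libraries. Its log2 fold change of 0.42 (SE 0.50, limma adjusted p = 0.714) was -0.27 against control 1 alone and -0.34 after length correction. *Actr6*, an actin-related subunit of SRCAP, was at 64.9 and 69.7 TPM against 67.1 and 74.3 TPM.

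The name rule also took ATPases outside these complexes. *Smarca5* encodes SNF2H, the ATPase of the ISWI complexes that space nucleosomes, and was at 173 and 152 TPM in the controls, against 271 and 262 TPM in the KO-labelled libraries. The means of 162 ± 14.8 and 267 ± 6.60 TPM (SD, n = 2 each) gave a 1.64-fold difference (limma log2 fold change 0.71, SE 0.18, adjusted p = 0.311), and the groups overlapped once length was corrected for. The other ISWI ATPase, *Smarca1* (SNF2L), reached 33.8 TPM in control 1 and 7.83 TPM in control 2, with the KO-labelled libraries between them at 18.8 and 15.1 TPM. Its log2 fold change of 0.03 (SE 0.74, limma adjusted p = 0.989) was negative after median-ratio scaling, quantile normalization and length correction. *Smarcad1*, an ATPase known for keeping chromatin in place through replication and for work at DNA ends, was at 19.3 and 17.0 TPM against 48.0 and 42.8 TPM. Its means were 18.1 ± 1.598 and 45.4 ± 3.71 TPM (SD, n = 2 each), a 2.504-fold difference (limma log2 fold change 1.28, SE 0.24, adjusted p = 0.310). It was the same way up against either control, by 1.19 and 1.36 on the log2 scale. *Smarcad1* lies on chromosome 6 at 65042583 to 65116061, plus strand (GRCm38). *Smarcal1*, which anneals DNA at stalled forks, was at 12.7 and 8.55 TPM against 14.9 and 17.5 TPM.

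The widest log2 fold change of all members belonged to *Smarca5-ps*, a pseudogene of *Smarca5* on chromosome 4 (145464204 to 145467420, plus strand, GRCm38). It was listed at 19.97 and 13.6 TPM in the controls, against 44.6 and 49.2 TPM in the KO-labelled libraries (limma log2 fold change 1.45, SE 0.29, adjusted p = 0.310). Single-end reads of 75 nt can match both the gene and its copy, so the division between them is uncertain. The pseudogene's share of their summed TPM was 10.4% and 8.21% in the controls, against 14.1% and 15.8% in the KO-labelled libraries.

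The other ARID proteins bind DNA in complexes that do not remodel nucleosomes themselves. *Arid4b*, a subunit of the SIN3 histone deacetylase complex, was at 52.3 and 32.3 TPM in the controls, against 83.9 and 85.2 TPM in the KO-labelled libraries (limma log2 fold change 1.02, SE 0.29, adjusted p = 0.318). Its paralogue *Arid4a* was at 20.5 and 7.97 TPM against 23.5 and 26.2 TPM, again without overlap. *Arid3a* was at 5.58 and 2.94 TPM against 5.98 and 5.57 TPM, and *Arid5a* at 5.56 and 6.28 TPM against 9.68 and 5.43 TPM, both overlapping. *Arid3b* was at 28.8 and 14.1 TPM against 24.5 and 19.0 TPM, and *Arid5b* at 7.57 and 1.82 TPM against 4.96 and 5.50 TPM.

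In 7 of 46 members (15.2%) both KO-labelled libraries lay between a higher control 1 and a lower control 2, as they did in 20.3% of all genes tested. They were *Arid3b*, *Arid5b*, *Ep400*, *Ino80c*, *Smarca1*, *Smarca2* and *Smarcc2*. The summed Leydig and macrophage markers had control 1 highest and control 2 lowest in the same way. Red blood cell markers did too, at 71.5 and 20.3 TPM in the controls, against 29.7 and 36.5 TPM. Round spermatid markers were also highest in control 1, at 143 and 54.1 TPM against 50.55 and 54.4 TPM, as were pachytene markers. Those of spermatogonia, of leptotene and zygotene and of Sertoli cells had control 1 lowest. As a percent of control 1, control 2 ranged from 22.4% (*Smarca2*) to 63.1% (*Ino80c*) in these members, beside 0.618% for the Leydig markers and 0.967% for the macrophage markers. Whether these transcripts came from Leydig cells, macrophages or other cells, or went with the stage of the germ cells, was not tested. In *Dpf1* and *Ruvbl1* they lay between the controls the other way round (4.35%, beside 10.6% of all genes), so that neither pattern was more frequent in the members than over all genes.

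**Figure D4:**
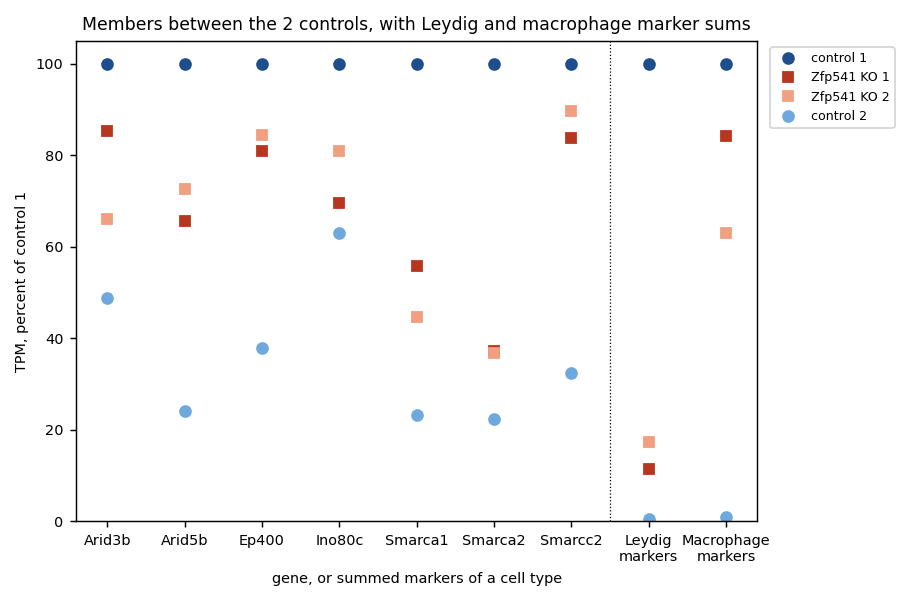
TPM as a percent of control 1 for the 7 members whose KO-labelled libraries lie between the controls, and for the summed Leydig and macrophage markers right of the dotted line. Control 2 is lowest in every column, from 22.4% to 63.1% in the members and below 1% in the marker sums.

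The log2 fold change varied with transcript length, taken from the longest annotated transcript, which can exceed the one expressed. Across the 46 members, Spearman's correlation of the longest annotated transcript with the log2 fold change was 0.42, and across 14373 genes it was 0.37, as descriptions over genes that share the same 4 libraries. Against the log2 difference of control 2 from control 1, the correlations were -0.53 and -0.23. The median log2 fold change of all genes was -0.06 in the shortest of 5 equal groups and 0.60 in the longest, which held 20 of the 46 members with a median of 0.57. Long members such as *Ino80d*, *Arid1b*, *Srcap* and *Arid1a* stood above that median, whereas *Ep400*, of similar length, was below it. With length corrected for, the log2 fold change was 0.48 for *Arid1a* and *Arid1b*, 0.45 for *Ino80d*, 0.49 for *Arid4b* and 0.80 for *Smarcad1*. After a correction for length the members' median was -0.0018, beside 0.01 over all genes, and 13 were higher and 10 lower in both KO-labelled libraries (22.5% and 21.4% of all genes). After median-ratio scaling, which moved the median of all genes from 0.28 to -0.01, the counts were 14 and 8 (22.6% and 22.8%).

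**Figure D5:**
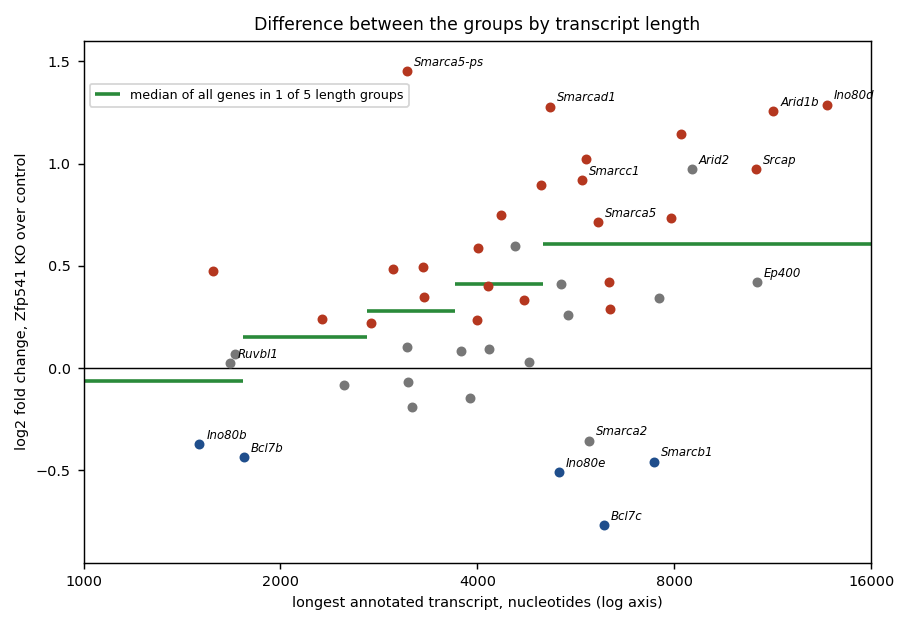
log2 fold change of the 46 members against the length of the longest annotated transcript in nucleotides (log axis), red where both KO-labelled libraries exceed both controls, blue where both are below and grey where groups overlap. Green lines are medians of all genes in 5 equal groups of length, rising from -0.06 to 0.60; *Smarcad1*, *Smarca5-ps* and *Ino80d* lie well above their line.

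Under all of median-ratio scaling, quantile normalization and length correction, 12 members remained higher without overlap (26.1%, beside 16.5% of all genes tested). They were *Arid1a*, *Arid1b*, *Arid4b*, *Ino80d*, *Pbrm1*, *Smarca5-ps*, *Smarcad1*, *Smarcal1*, *Smarcc1*, *Smarcd1*, *Srcap* and *Ss18l1*. The 5 lower members, *Bcl7b*, *Bcl7c*, *Ino80b*, *Ino80e* and *Smarcb1*, also remained lower under all of these (10.9%, beside 11% of all genes).

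The known partners of these ATPases outside the name rule were listed separately. The list also took 9 genes of the SIN3 complex of *Arid4a* and *Arid4b*, and 2 of the exchanged histone variant. Of 47 partner genes 46 were tested, and 0 were called at the FDR. At an unadjusted p under 0.05, 4 were higher and 3 lower (10.7% and 3.73% of all genes), and 21 were higher and 4 lower without overlap (38.6% and 12.1% of all genes). Their median log2 fold change was 0.20, and 0.38 without control 1, beside 0.28 and 0.44 over all genes tested. Without control 1, limma called 20 of them higher and 10 lower (38.7% and 9.47% of all genes), and without control 2 it called 8 and 5 (15.5% and 12.9%). The partner genes that were lower without overlap then numbered 15 and 13 (25% and 36% of all genes). *Chrac1*, a histone-fold subunit of the SNF2H-containing CHRAC complex, was at 297 and 287 TPM in the controls, against 138 and 140 TPM in the KO-labelled libraries (limma log2 fold change -1.07, SE 0.17, adjusted p = 0.310). *Baz1b*, which pairs with SNF2H in the WICH complex, was at 54.1 and 51.3 TPM against 110 and 109 TPM (limma log2 fold change 1.04, SE 0.18, adjusted p = 0.310). *Cecr2*, another ISWI partner known to be expressed in testis, was at 17.1 and 16.1 TPM against 43.5 and 40.2 TPM (limma log2 fold change 1.28, SE 0.24, adjusted p = 0.310). *Bptf*, the large subunit of NURF, was at 35.0 and 12.2 TPM against 49.4 and 52.0 TPM (limma log2 fold change 1.25, SE 0.54, adjusted p = 0.383), which was 0.52 against control 1 alone, 1.97 against control 2 alone and 0.45 after length correction. Among the 11 ISWI partners listed, 5 were higher and 1, *Chrac1*, was lower without overlap (45.5% and 9.09%, beside 38.6% and 12.1% of all genes).

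In the other complexes, *Znhit1*, the SRCAP subunit needed for H2A.Z exchange, was at 287 and 351 TPM in the controls, against 179 and 198 TPM in the KO-labelled libraries (limma log2 fold change -0.75, SE 0.21, adjusted p = 0.315). *Brms1*, a SIN3 subunit, was at 112 and 114 TPM against 71.1 and 80.9 TPM (limma log2 fold change -0.57, SE 0.18, adjusted p = 0.323). Of the 14 SRCAP and TIP60 partners listed, 6 were higher and 2 lower without overlap (42.9% and 14.3%). Of the 9 SIN3 partners, 3 were higher and *Brms1* was lower (33.3% and 11.1%). Over all genes tested the shares were 38.6% and 12.1%. The exchanged histone variant itself, *H2afz*, was at 894 and 1142 TPM against 1032 and 1001 TPM, an overlap. The SWI/SNF partners tested, 5 of 6 listed, were all higher without overlap, as were 38.6% of all genes tested. No INO80 partner was lower without overlap (12.1% of all genes). The log2 fold changes of *Actl6a* (0.10) and *Brd7* (0.24) were below the median of all genes, 0.28. Those of *Brd9* (0.37), *Gltscr1* (0.85) and *Gltscr1l* (0.80) were above it.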

How the data were processed

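Per the submitters' processing notes and the methods of the study, the authors trimmed single-end reads of 75 nt with Trim Galore 0.5.0 and cutadapt 1.16, aligned them to mm10 with STAR 2.6.0a and estimated expression with RSEM 1.3.1, and the deposited values are TPM per gene and library. TPM keeps no sequencing depth, so no counting interval is given. Of the gene names, 27 were turned into dates and were not interpreted.

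Samples were grouped by genotype label. The members and lists were chosen with earlier results of these data known. Genes whose mean over the 4 samples reached 1 TPM were fitted as log2(TPM + 1) with limma 3.58.1 in R 4.3.3 (mean-variance trend, two-sided, Benjamini-Hochberg over all genes tested, FDR 0.05). The fit was tried on simulated data with changes larger than that of any member, which cannot show its power at the sizes seen here. Fold changes on this scale understate those of low genes. Full statistics were given to the ATPases *Smarca1*, *Smarca2*, *Smarca4*, *Smarca5*, *Ino80*, *Srcap* and *Ep400*, to the 6 largest and 6 smallest log2 fold changes, to paralogues whose shares did not overlap, and to the 3 largest and 3 smallest partners whose groups were apart. Transcript lengths and gene positions came from the GENCODE annotation of GRCm38, promoters from RefSeq. The methods name RSEM for a differential analysis of TPM, which was not repeated here. Alternatives were other pseudocounts, no filter, other scalings, a replicate block, no trend, a length correction, an FDR of 0.1 and leaving out each library. No protein sequence was used here.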

Additional observations from a re-analysis of the deposited data

How the results depend on the processing

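No member or partner gene was called under any setting that kept all 4 libraries. Leaving out 1 library, the members called ranged from 0 to 22 higher and from 0 to 3 lower, the partner genes called from 0 to 20 higher and from 0 to 10 lower, the members without overlap from 6 to 13 lower, and the partner genes without overlap from 5 to 15 lower, where 15.6% to 36% of all genes were lower. After median-ratio scaling, 14 members were higher and 8 lower without overlap, 13 partner genes were higher and 15 lower, and the partner genes' median was -0.13. After length correction these counts were 13 and 10 members and 11 and 11 partner genes, and the members' median was -0.0018. With 1 TPM added, the shares of *Arid1a* and *Arid1b* differed by -1.09 and 1.09 points. In all, 11 of 46 members turned sign by median-ratio scaling, 6 by quantile normalization and 13 by length correction. Among members with full statistics, the sign turned for *Ruvbl1* (-0.31 by median-ratio scaling, -0.019 by quantile normalization, -0.015 by length correction), *Smarca1* (-0.28, -0.32 and -0.41 in that order, and -0.028 with a pseudocount of 5) and *Smarcd3* (-0.24, -0.17 and -0.25). Median-ratio scaling also turned *Ruvbl2* (-0.095), *Smarca4* (-0.048) and *Smarcd2* (-0.11). Length correction turned *Smarca4* (-0.28), *Bcl7a* (-0.10), *Ep400* (-0.34) and *Ino80* (-0.14). The others that turned were *Actr6*, *Actr8*, *Arid3b*, *Arid5a* and *Smarce1* by median-ratio scaling, *Actr6*, *Arid3b* and *Smarce1* by quantile normalization, and *Actr8*, *Arid3a*, *Arid3b*, *Arid5a*, *Arid5b* and *Smarce1* by length correction. Without 1 library, the values ran from -0.96 to 1.02 for *Smarca1*, -1.41 to 0.70 for *Smarca2*, -0.27 to 1.11 for *Ep400*, -0.096 to 0.14 for *Ruvbl1* and -0.027 to 0.19 for *Smarcd3*. The cause of these changes was not tested. Deviations from the group means correlated at -0.16 between samples of the same number, so the numbers were not taken as pairs, and with a replicate block 0 members were called (smallest adjusted p 0.629, limma). With the numbers crossed, an alternative chosen after seeing the data, 7 genes were higher and 80 lower at the FDR and 0 members were called.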
